A study of Mus musculus with 21 samples.

Results

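The 5 genes described here are core components of Hedgehog signalling: Smo, Kif7, Sufu, Gli1 and Hhip. They are 5 of the 21883 protein-coding gene windows of the mouse annotation used, and they were named as pathway members, with earlier results of these data known. For each gene, the window was the gene body with 20 kb on each side, and its value in a library was the number of peak summits there among the 100000 highest-scoring summits of that library, called kept summits below. A summit is the point of strongest signal within a stretch of accessible chromatin. The 21 libraries were made with Omni-ATAC, an assay in which a transposase cuts open chromatin, and fell into 7 groups of 3. Of these, 9 libraries were primary EGFP-positive cells sorted from Atoh1-EGFP mice: granule neuron progenitors (GNP) at postnatal day 7, hyperplasia at postnatal day 28, and medulloblastoma, for which no age is listed. The GNP sample names begin with Ptch1, but the sources used here state no genotype for these mice or for the hyperplasia and tumor mice. The other 12 libraries came from VDR, a mouse medulloblastoma cell line, either untreated or treated with siRNA: siNC as the control, siNfia for Nfia, or siNfib for Nfib. The deposited list names use sh where the labels use si, so the reagent is uncertain, and summit lists hold no transcript level by which a knockdown could be checked. Nothing states whether replicates were separate animals or cultures, so p-values measure only the spread between these libraries, which may be technical. Age and stage cannot be told apart, nor can cell line, culture and siRNA treatment in siNC against tumor.

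Hedgehog ligands bind Ptch1 on the primary cilium, which relieves the inhibition of the membrane protein Smo. Active Smo lets Gli transcription factors escape their inhibitor Sufu, with the ciliary kinesin Kif7 organising the cilium tip where this takes place, and Gli1 and the ligand-binding antagonist Hhip are themselves transcribed in response. In the cerebellum the pathway drives proliferation of granule neuron progenitors, and its unchecked activity underlies a subgroup of medulloblastoma.

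The 250 bases before each start are shown because the strongest summits of Smo, Sufu, Hhip and Kif7 near their starts fell within or next to them in most libraries. RefSeq promoters on GRCm38.p6 (mm10) were matched for 4 of the 5 genes, and Gli1 had no match. Sequences run 5′ to 3′ on the gene's own strand, and capitals mark the GC box GGGCGG on either strand and the CCAAT box. Smo is on the plus strand at chr6:29735247-29735496, Kif7 on the minus strand at chr7:79715708-79715957, Hhip on the minus strand at chr8:80058009-80058258 and Sufu on the plus strand at chr19:46396646-46396895.
Smo: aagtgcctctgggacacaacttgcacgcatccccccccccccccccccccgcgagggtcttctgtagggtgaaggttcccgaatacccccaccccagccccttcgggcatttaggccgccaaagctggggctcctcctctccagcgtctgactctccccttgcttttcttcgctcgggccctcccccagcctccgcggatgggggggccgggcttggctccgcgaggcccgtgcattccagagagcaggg
Kif7: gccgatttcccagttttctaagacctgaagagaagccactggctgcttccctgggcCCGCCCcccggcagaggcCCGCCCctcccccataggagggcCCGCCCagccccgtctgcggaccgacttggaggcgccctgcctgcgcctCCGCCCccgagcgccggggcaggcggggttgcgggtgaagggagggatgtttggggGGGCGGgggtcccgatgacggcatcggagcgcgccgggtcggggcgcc
Sufu: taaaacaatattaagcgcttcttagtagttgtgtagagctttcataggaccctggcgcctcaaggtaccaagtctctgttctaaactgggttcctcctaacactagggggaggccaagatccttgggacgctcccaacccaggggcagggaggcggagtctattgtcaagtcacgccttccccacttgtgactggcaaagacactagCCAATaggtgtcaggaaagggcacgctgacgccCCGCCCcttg
Hhip: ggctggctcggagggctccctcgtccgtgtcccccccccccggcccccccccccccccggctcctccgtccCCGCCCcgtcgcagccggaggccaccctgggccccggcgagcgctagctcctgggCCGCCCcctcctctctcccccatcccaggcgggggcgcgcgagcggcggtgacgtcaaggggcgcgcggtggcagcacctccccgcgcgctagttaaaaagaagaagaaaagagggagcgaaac

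The promoters of Hhip, Kif7 and Smo were rich in G and C, at 76%, 74.4% and 68.4%, while that of Sufu was at 54%, near the median of 52.4% over 32851 promoters. The GC box occurred 5 times in Kif7, 2 times in Hhip, 1 time in Sufu and 0 times in Smo, and 32.7% of all promoters held it. Sufu also held 1 CCAAT box (33.8% of all promoters), and Hhip held 1 cyclic AMP response element, TGACGTCA (1.55%). These 3 motifs were added after the sequences had been read. None of the 4 sequences held the GLI motif GACCACCCA (0.225% of all promoters), the palindromic NFI motif (0.0365%), the single NFI motif TTGGCA (12.3%), the E-boxes CAGCTG (13%) and CAGATG (14.4%), or the AP-1 motif TGANTCA (6.75%). Both strands were searched, and the single NFI motif can lie inside the palindromic one. A missing match says only that these letters are not in these 250 bases.

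The lists held 159720 to 279584 summits per library, and read depth is unknown. The untreated VDR libraries stood apart from the other 18. Their score at rank 100000 was 3.76 to 3.97 against 4.95 to 28.9, and only 10.1% to 14.4% of their kept summits shared a peak with another kept summit, against 40.9% to 70.3%. Kept summits at the 7 granule progenitor marker genes (Atoh1, Barhl1, Zic1, Zic2, Pax6, Meis1 and Neurod1) summed to 154 to 244 in those 18 libraries and 54 to 83 in untreated VDR, with 0 markers lacking a summit throughout a group. Sums over 6 microglia and immune markers were also apart, at 31 to 37 in untreated VDR and 12 to 21 in the others, as were 6 endothelial and mural markers, at 30 to 34 and 20 to 29. Those of 6 fibroblast markers were 18 to 20 in untreated VDR and 17 to 33 in the others. Between stages, 6 granule neuron markers summed to 106 to 110 in GNP, 83 to 93 in hyperplasia and 75 to 90 in tumor, 6 Purkinje and interneuron markers to 37 to 41, 49 to 53 and 46 to 53, and 6 oligodendrocyte markers to 38 to 46, 47 to 52 and 48 to 54. In the same order, 7 granule progenitor markers summed to 220 to 244, 186 to 224 and 188 to 219. The 6 endothelial and mural markers summed to 27 to 28, 22 to 24 and 21 to 25, and the 6 fibroblast markers to 26 to 31, 26 to 27 and 31 to 33. The part of these differences in the results below was not tested. Among the progenitor markers, Neurod1 held fewer than 3 kept summits in each untreated VDR library. In the other lists some markers held none throughout a group. These included Gabra6 in every group, Olig2 in siNC and siNfia, and Calb1 and Ptf1a in every siRNA group. In these bulk libraries, a change in cell makeup and a change within cells cannot be told apart.

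Over all 21 libraries the 5 windows held 1724 of 2100000 kept summits, 831 of them in the gene bodies. Per kb of window, Smo (0.311 kept summits per kb and library), Gli1 (0.286) and Sufu (0.257) lay at the 96.6, 95.4 and 93.8 percentiles of all windows. Kif7 (0.0941) and Hhip (0.0573) lay at the 64.4 and 47.5 percentiles, near the median window of 0.0620. Merging kept summits of all libraries into 500 bp sites gave 136 sites in the 5 windows, of which 33 lay in neighbouring genes. A total of 51 sites were kept in 1 library only, 37 of these in an untreated VDR library, and 75 were kept in 3 or more libraries. Of those 75, 15 were kept in all 21 libraries, 9 of them in the Sufu window, against 13% of all regions kept in 3 or more libraries.

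**Figure D1:**
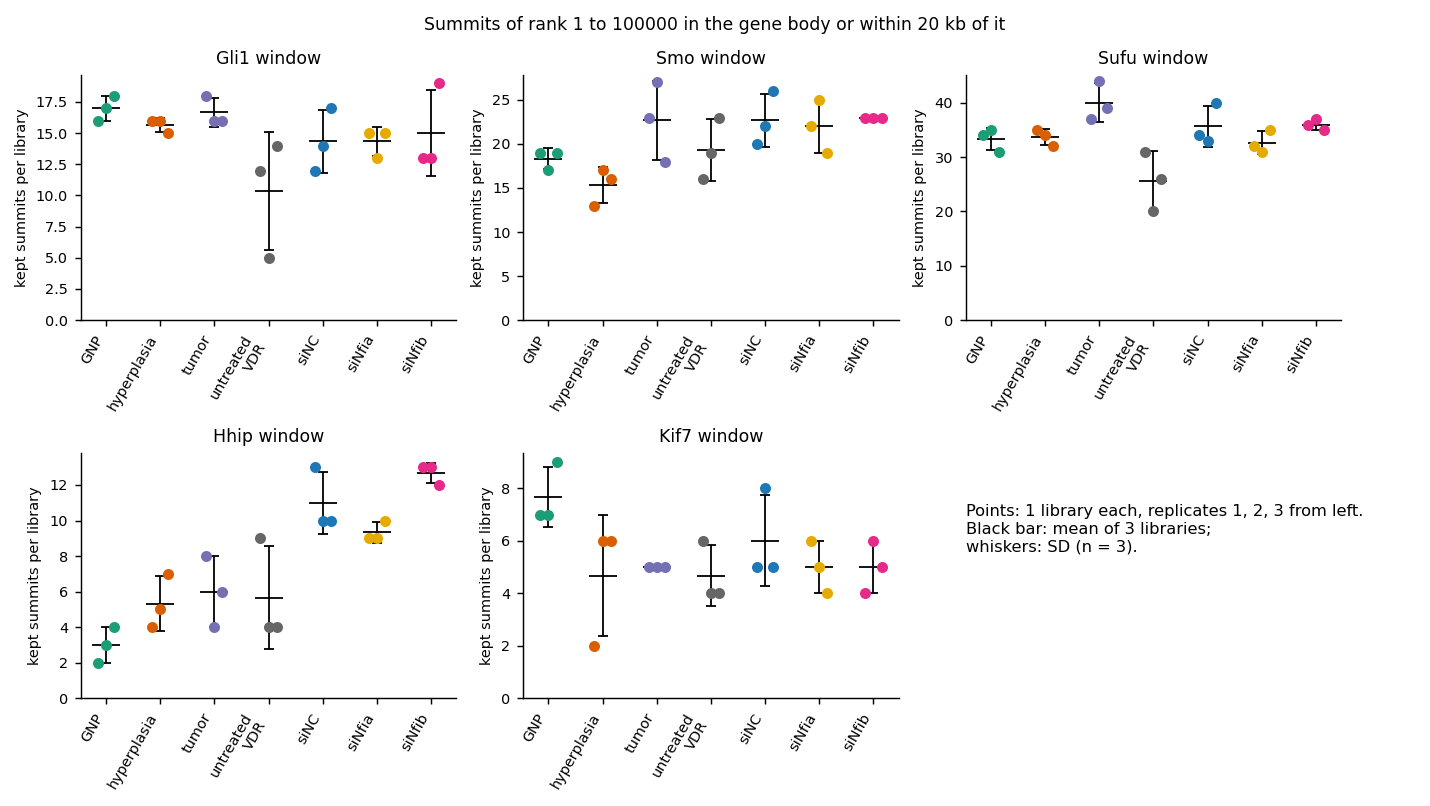
Kept summits per library (vertical axis, counts from 0) in each gene window, by group (horizontal axis). Points are libraries, black bars are means of 3 and whiskers are SD. The 3 siNC libraries lie at 10 to 13 in the Hhip window, above all 3 tumor (4 to 8) and all 3 untreated VDR libraries (4 to 9).

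Smo, the membrane transducer that passes the ligand signal into the cell, had accessible chromatin at its start in all 21 libraries. The Smo gene lies on chr6:29735497-29761366, and the window also covers parts of Tspan33 and Ahcyl2. Kept summits in the window numbered 19, 17 and 19 in GNP, 13, 17 and 16 in hyperplasia, and 23, 27 and 18 in tumor. All tumor libraries were above all hyperplasia libraries, but tumor overlapped GNP in its lowest library. The share of all windows that separate in this way was not computed. The log2 difference between tumor and hyperplasia was 0.53 (SE 0.15), and it did not pass limma's test (adjusted p = 0.125). Tumor against GNP gave 0.28 (SE 0.15, limma adjusted p = 0.296) and hyperplasia against GNP -0.25 (SE 0.15, limma adjusted p = 0.375).

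One tumor library stood far from all others inside the Smo gene. Tumor library 2 had 12 Smo gene-body summits among its 1000 strongest, at ranks 4 to 17 of 263313 listed. Of these, 1 lay 710 bp from the start and 11 lay between 18078 and 24483 bp, near the end of the gene. Each of the other 20 libraries had 0 or 1 Smo gene-body summits among its 1000 strongest, and no other gene body had more than 4 in tumor library 2. In tumor libraries 1 and 3 the best summit beyond 15 kb ranked 34264 and 57510. Tumor library 1 and GNP library 1 each listed summits, mostly weak, within 100 bp of 7 of the 12 positions, and the others listed 0 to 4. Which DNA gave these summits was not tested. Without tumor library 2, the difference between tumor and hyperplasia was 0.39 (SE 0.14, limma adjusted p = 0.264) and that between tumor and GNP 0.15 (SE 0.14, limma adjusted p = 0.599).

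**Figure D2:**
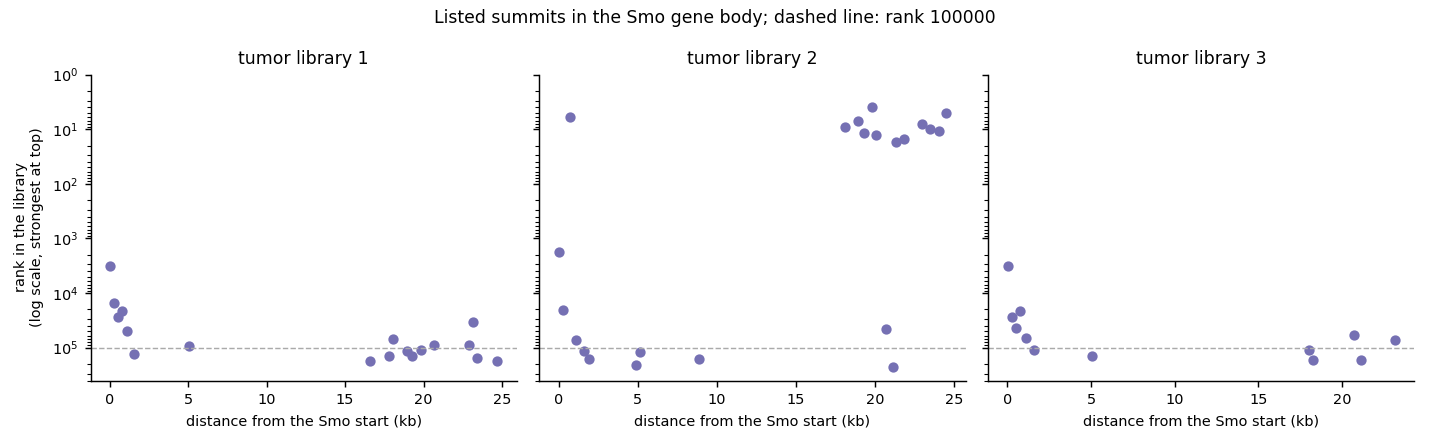
Listed summits in the Smo gene body in the 3 tumor libraries, by distance from the start in kb (horizontal) and by rank in the library (vertical, log scale, strongest at the top). Tumor library 2 has 12 summits at ranks 4 to 17, while the best summits of tumor libraries 1 and 3 rank at 3258 and 3234.

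Chromosome 6 as a whole held more kept summits in tumor (6114 to 7122) than in GNP (5086 to 5095) or hyperplasia (5142 to 5270). Relative to the rest of its chromosome, the Smo difference was 0.16 between tumor and hyperplasia and -0.12 between tumor and GNP, so that the latter turned sign. The part of chromosome 6 in the Smo counts was not tested further.

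One Smo site was present in GNP and tumor and missing in hyperplasia. At chr6:29755952-29756451, 20.7 kb into the gene, GNP libraries had summits at ranks 59938, 51834 and 68003 and tumor libraries at ranks 88121, 45424 and 57510. The 3 hyperplasia lists and the 9 siRNA-treated VDR lists held no summit there at any rank, and 1 untreated VDR list held a weak one at rank 183686. Here and below, a site counted as gained or lost when it was kept in 3 of 3 libraries of one group and 0 of 3 of the other. This site was lost between GNP and hyperplasia, gained between hyperplasia and tumor, and lost between tumor and siNC. Because tumor library 2 also had its strong summits around this position, the ranks of tumor libraries 1 and 3 are those that do not rest on it. At the start of Smo, the best ranks within 1 kb were 5600 to 6541 in GNP, 7832 to 9593 in hyperplasia, and 3258 and 3234 in tumor libraries 1 and 3. The siRNA-treated libraries ranked at 724 to 5593 and the untreated VDR libraries at 228, 6354 and 17336.

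Kif7, a kinesin that moves to the tip of the cilium and acts on Gli proteins there, lies on chr7:79698098-79715772, in a window it shares with parts of Ticrr and Plin1. Its window held 7, 7 and 9 kept summits in GNP, 2, 6 and 6 in hyperplasia and 5 in each tumor library. All GNP libraries were above all others of the primary groups, but how many of all windows do so was not computed. The log2 difference was -0.71 (SE 0.29, limma adjusted p = 0.206) in hyperplasia and -0.52 (SE 0.29, limma adjusted p = 0.319) in tumor against GNP, and neither passed the test. Hyperplasia library 1, with 2 summits, carried much of the former, which was -0.30 without it and ran from -0.92 to -0.064 over the other settings. VDR libraries held 4 to 8 kept summits.

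A site inside Kif7 separated the primary cells from the cell line. At chr7:79709989-79710488, 5468 bp into the gene, GNP libraries ranked at 34899, 38941 and 30471, hyperplasia libraries at 49598, 48408 and 33608, and tumor libraries at 45025, 64111 and 68177. None of the 12 VDR lists held a summit there at any rank. It was the only one of the 75 member sites kept in all 9 primary and in 0 of the 9 siRNA-treated libraries, a pattern shown by 3.8% of all regions kept in 3 or more libraries. The opposite pattern was shown by 0 of the 75 and by 1.16% of all such regions. The Kif7 start site at chr7:79715626-79716125, overlapping the promoter printed above, was kept in all 9 primary and all 9 siRNA-treated libraries, at ranks 19114 to 60647. It was kept in 0 of 3 untreated VDR libraries and listed in 1 of them, at rank 135985. Within 1 kb of the start, untreated VDR libraries 2 and 3 kept a summit, at ranks 56592 and 55804, and library 1 kept none.

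Sufu, which holds Gli proteins in the cytoplasm and restrains their activity, had the most kept summits of the 5 windows. The gene lies on chr19:46396896-46488804, and parts of Actr1a and Trim8 fall in the window. Kept summits numbered 34, 35 and 31 in GNP, 35, 34 and 32 in hyperplasia and 37, 44 and 39 in tumor. Each tumor library was above each GNP and hyperplasia library, but how many of all windows separate in this way was not computed. The log2 difference was 0.25 (SE 0.08, limma adjusted p = 0.0933) against GNP and 0.24 (SE 0.08, limma adjusted p = 0.180) against hyperplasia, which did not pass. Against GNP it passed with 1 summit counted per peak, at 0.58 (limma adjusted p = 0.0293), and relative to the rest of chromosome 19, at 0.32 (limma adjusted p = 0.0464), but it was 0.14 with 50000 summits kept (limma adjusted p = 0.519) and 0.13 over occupied sites (limma adjusted p = 0.354).

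Within Sufu, a site deep in the gene moved up in rank between GNP and the later stages. At chr19:46451999-46452498, 55.4 kb from the start, GNP libraries ranked at 23915, 26059 and 27481. Hyperplasia libraries ranked at 6650, 2972 and 2180 and tumor libraries at 2375, 1588 and 894, with no overlap between GNP and either group. The siNC libraries ranked at 9469, 9198 and 5857, the siNfia libraries at 19428, 23345 and 12748, and the siNfib libraries at 8805, 4551 and 4732. All siNfia ranks were therefore weaker than all siNC ranks, whereas the siNfib ranks overlapped those of siNC. The site was singled out after its values were seen. No single site was tested.

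Another Sufu site, at chr19:46422346-46422845 and 25.7 kb from the start, was strong in the primary cells throughout. Its ranks were 475, 204 and 497 in GNP, 762, 764 and 395 in hyperplasia, and 510, 676 and 424 in tumor. In siNC they were 14857, 11586 and 9371, in siNfia 14793, 18440 and 40129, and in siNfib 15260, 9725 and 12981. No primary library overlapped any VDR library at this site, as the untreated ones ranked at 4756, 3641 and 7015. The share of all regions whose ranks separate between groups was not computed, for this Sufu site or the one before it. The strongest Sufu summit within 1 kb of its start ranked between 4534 and 13703 in all 21 libraries.

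**Figure D3:**
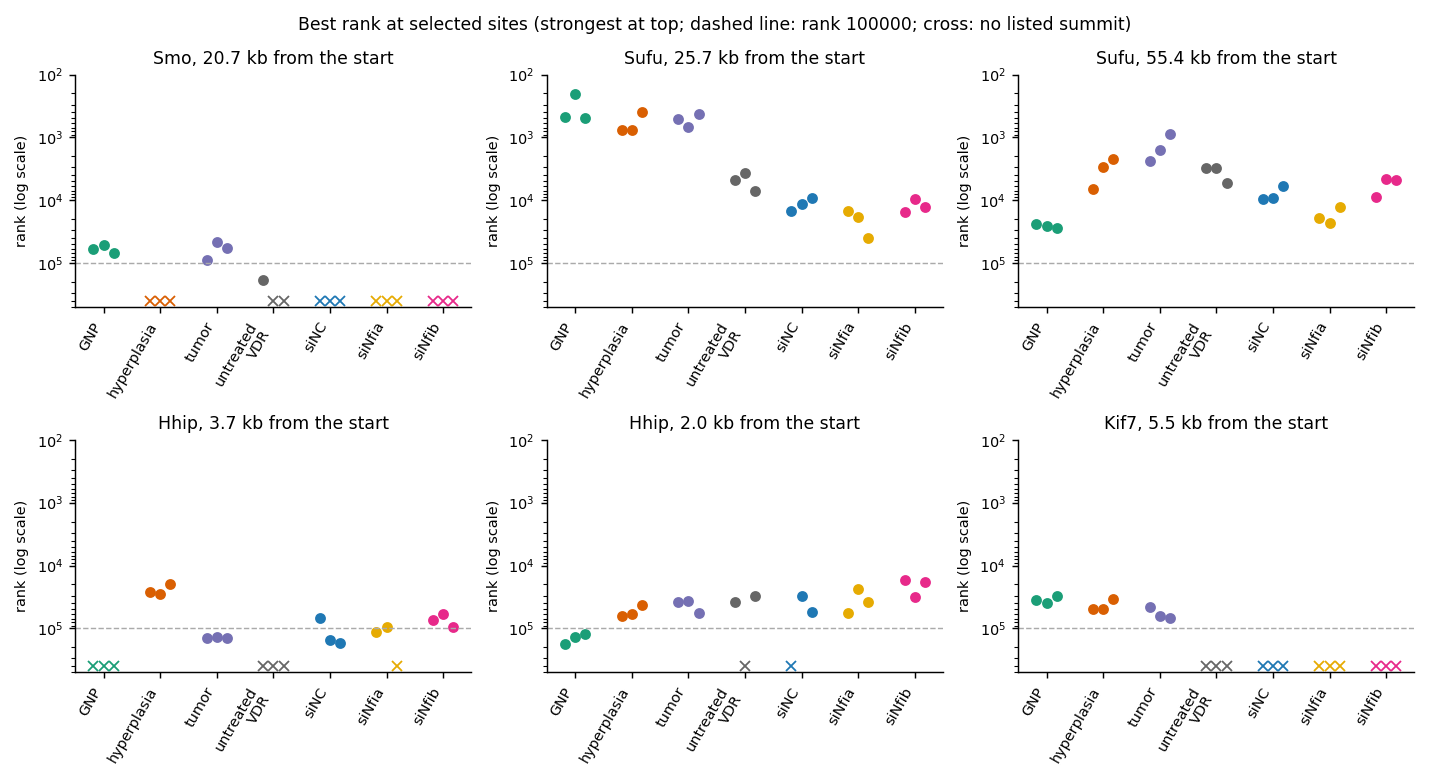
Best rank of a listed summit at 6 member sites (vertical, log scale, strongest at the top) by group (horizontal). Points are libraries, crosses mark libraries with no listed summit and the dashed line is rank 100000. The Sufu site at 55.4 kb ranks at 23915 to 27481 in GNP and at 894 to 6650 in hyperplasia and tumor, and the Kif7 site has points in the 9 primary libraries only.

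Other Sufu sites changed between stages at lower ranks. The site at chr19:46479246-46479745 was absent from all GNP lists and kept in all tumor libraries at ranks 62450, 81616 and 62516. In hyperplasia 1 library kept it, at rank 91528. A site in the neighbouring gene Trim8, at chr19:46507054-46507553, had ranks 154538 to 164172 in GNP, 24556 to 27328 in hyperplasia and 14200 to 24637 in tumor. One site, at chr19:46478189-46478688 and 81543 bp from the start, was kept in 3 of 3 siNC libraries (ranks 40588, 25355 and 62320) and in 0 of 3 siNfia and 0 of 3 siNfib libraries. Those 6 lists held it weakly or lacked it, with the best at rank 97100, and that list fell short of keeping it only by the order of tied scores.

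Gli1, the transcription factor that both carries out and reports Hedgehog signalling, had overlapping window counts in the 3 primary groups. The gene lies on chr10:127329882-127341579, with parts of Mars1, Arhgap9, Inhbe and Inhbc in the window, and the annotation used here gives no strand. Kept summits numbered 16, 17 and 18 in GNP, 16, 16 and 15 in hyperplasia and 18, 16 and 16 in tumor. The log2 difference of tumor against GNP was -0.03 (95% interval -0.21 to 0.15, limma adjusted p = 0.860). That of hyperplasia against GNP was -0.11 (95% interval -0.29 to 0.07, limma adjusted p = 0.476). In the gene body alone, hyperplasia held 6, 7 and 6 kept summits against 8, 9 and 10 in GNP, with no overlap, and the difference of -0.45 passed (limma adjusted p = 0.0383).

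The strongest Gli1 gene-body site, at chr10:127338811-127339310 and 2518 bp from the upper end of the gene, was kept in all 21 libraries. Its ranks were 7589, 9768 and 7845 in GNP, 6650, 3777 and 6015 in hyperplasia and 5331, 11189 and 7620 in tumor, and 2761 to 17101 in VDR. A stronger site in the window, at ranks 613 to 5368 in all 21 libraries, lay in the neighbouring gene Mars1. A site just beyond the upper end of Gli1, at chr10:127341638-127342137, was kept in all 9 primary libraries at ranks 43023 to 78540. It was kept in 0 of 3 untreated VDR and 0 of 3 siNC libraries, and in 1 library each of siNfia and siNfib. In the VDR libraries the Gli1 window held 12, 5 and 14 kept summits untreated, 12, 14 and 17 with siNC, 15, 13 and 15 with siNfia and 13, 13 and 19 with siNfib.

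Hhip, a membrane-anchored protein that binds Hedgehog ligands and limits their action, was the member with differences past the test. The gene lies on chr8:79965850-80058060 with no other protein-coding gene in its window. All 6 of its sites kept in 3 or more libraries lay within 4 kb of the start. Kept summits numbered 2, 3 and 4 in GNP, 4, 5 and 7 in hyperplasia, 8, 4 and 6 in tumor, 9, 4 and 4 in untreated VDR, 13, 10 and 10 in siNC, 9, 9 and 10 in siNfia, and 13, 13 and 12 in siNfib. The siNC libraries were all above the tumor and untreated VDR libraries, a separation whose share over all windows was not computed.

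The Hhip count rose by 0.81 on the log2 scale in siNC against tumor (SE 0.23, limma adjusted p = 0.0366). It rose by 0.92 in siNC against untreated VDR (SE 0.29, limma adjusted p = 0.0382). In siNC against tumor, 1 of the 5 members was higher, where 21.5% of all windows tested were higher, and in siNC against untreated VDR it was 1 of 5 beside 19.9%. The call against tumor was lost without tumor library 2 (0.59, limma adjusted p = 0.0839), without tumor library 3 or without any one siNC library, and its sign turned to -0.40 when summits with a score of at least 10 were counted in lists of unequal length. The call against untreated VDR was lost without any one siNC library, and without untreated VDR library 2 or 3 (both 0.75), whereas without library 1 it was 1.25 (limma adjusted p = 0.0166). Over whole lists, with 1 summit per peak and over occupied sites the call against tumor was also lost, as was that against untreated VDR with 50000 summits kept, with 1 summit per peak and over occupied sites. Chromosome 8 held 6651 to 7300 kept summits in siNC, 5203 to 5337 in tumor and 8236 to 9268 in untreated VDR. Relative to the rest of that chromosome, the Hhip difference was 0.42 against tumor (limma adjusted p = 0.138) and 1.24 against untreated VDR (limma adjusted p = 0.0117). Several marker sums also differed between siNC and untreated VDR. Higher in siNC were granule progenitor (171 to 197 against 54 to 83) and fibroblast markers (23 to 28 against 18 to 20). Lower in siNC were microglia and immune (12 to 21 against 31 to 37) and endothelial and mural markers (20 to 22 against 30 to 34). Astrocyte markers were lower as well (44 to 49 against 50 to 59). Against tumor, siNC was lower in granule neuron (49 to 67 against 75 to 90) and oligodendrocyte markers (34 to 36 against 48 to 54). It was also lower in Purkinje and interneuron (35 to 39 against 46 to 53) and fibroblast markers (23 to 28 against 31 to 33). Sums of the other lists overlapped between siNC and tumor. The part of these differences in either Hhip comparison was not tested.

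In the primary cells the Hhip differences did not pass the test. Hyperplasia against GNP gave 0.67 (SE 0.27, limma adjusted p = 0.195) and tumor against GNP gave 0.80 (SE 0.27, limma adjusted p = 0.111). With 1 summit counted per peak, hyperplasia against GNP gave 1.20 and passed (limma adjusted p = 0.0307), as it did counted over occupied 500 bp sites, at 0.81 (limma adjusted p = 0.0470), but with scores of at least 10 it was 0.11 (limma adjusted p = 0.703).

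Individual Hhip sites differed between the stages. At chr8:80055784-80056283, 1974 bp into the gene, GNP libraries listed only weak summits, at ranks 179741, 135109 and 124087. Hyperplasia libraries ranked at 63226, 59637 and 42883 and tumor libraries at 38312, 36047 and 57510, all kept and none overlapping GNP. The siNfia libraries ranked at 57139, 23345 and 38084 and the siNfib libraries at 17066, 32035 and 18418. In siNC, 1 list held no summit there, and the other two ranked at 30980 and 54008.

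A neighbouring Hhip site was kept in hyperplasia among the primary groups. At chr8:80054092-80054591, 3666 bp into the gene, it ranked at 26104, 28092 and 19979 in hyperplasia. No GNP list held a summit there, and the tumor lists held it at ranks 140768, 139087 and 140457. It was also kept in all 3 siNfib libraries (74247, 58923 and 96659), in 1 siNC library (69080) and in 0 siNfia libraries. The Hhip start site at chr8:80057735-80058234, which runs into the printed promoter, was kept in all 9 primary libraries at ranks 26179 to 49502 and in all 9 siRNA-treated libraries at 19503 to 40233. In untreated VDR, 1 of 3 libraries kept it, at rank 36379, but all 3 kept summits within 1 kb of the start, with best ranks of 22102, 36379 and 14714.

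**Figure D4:**
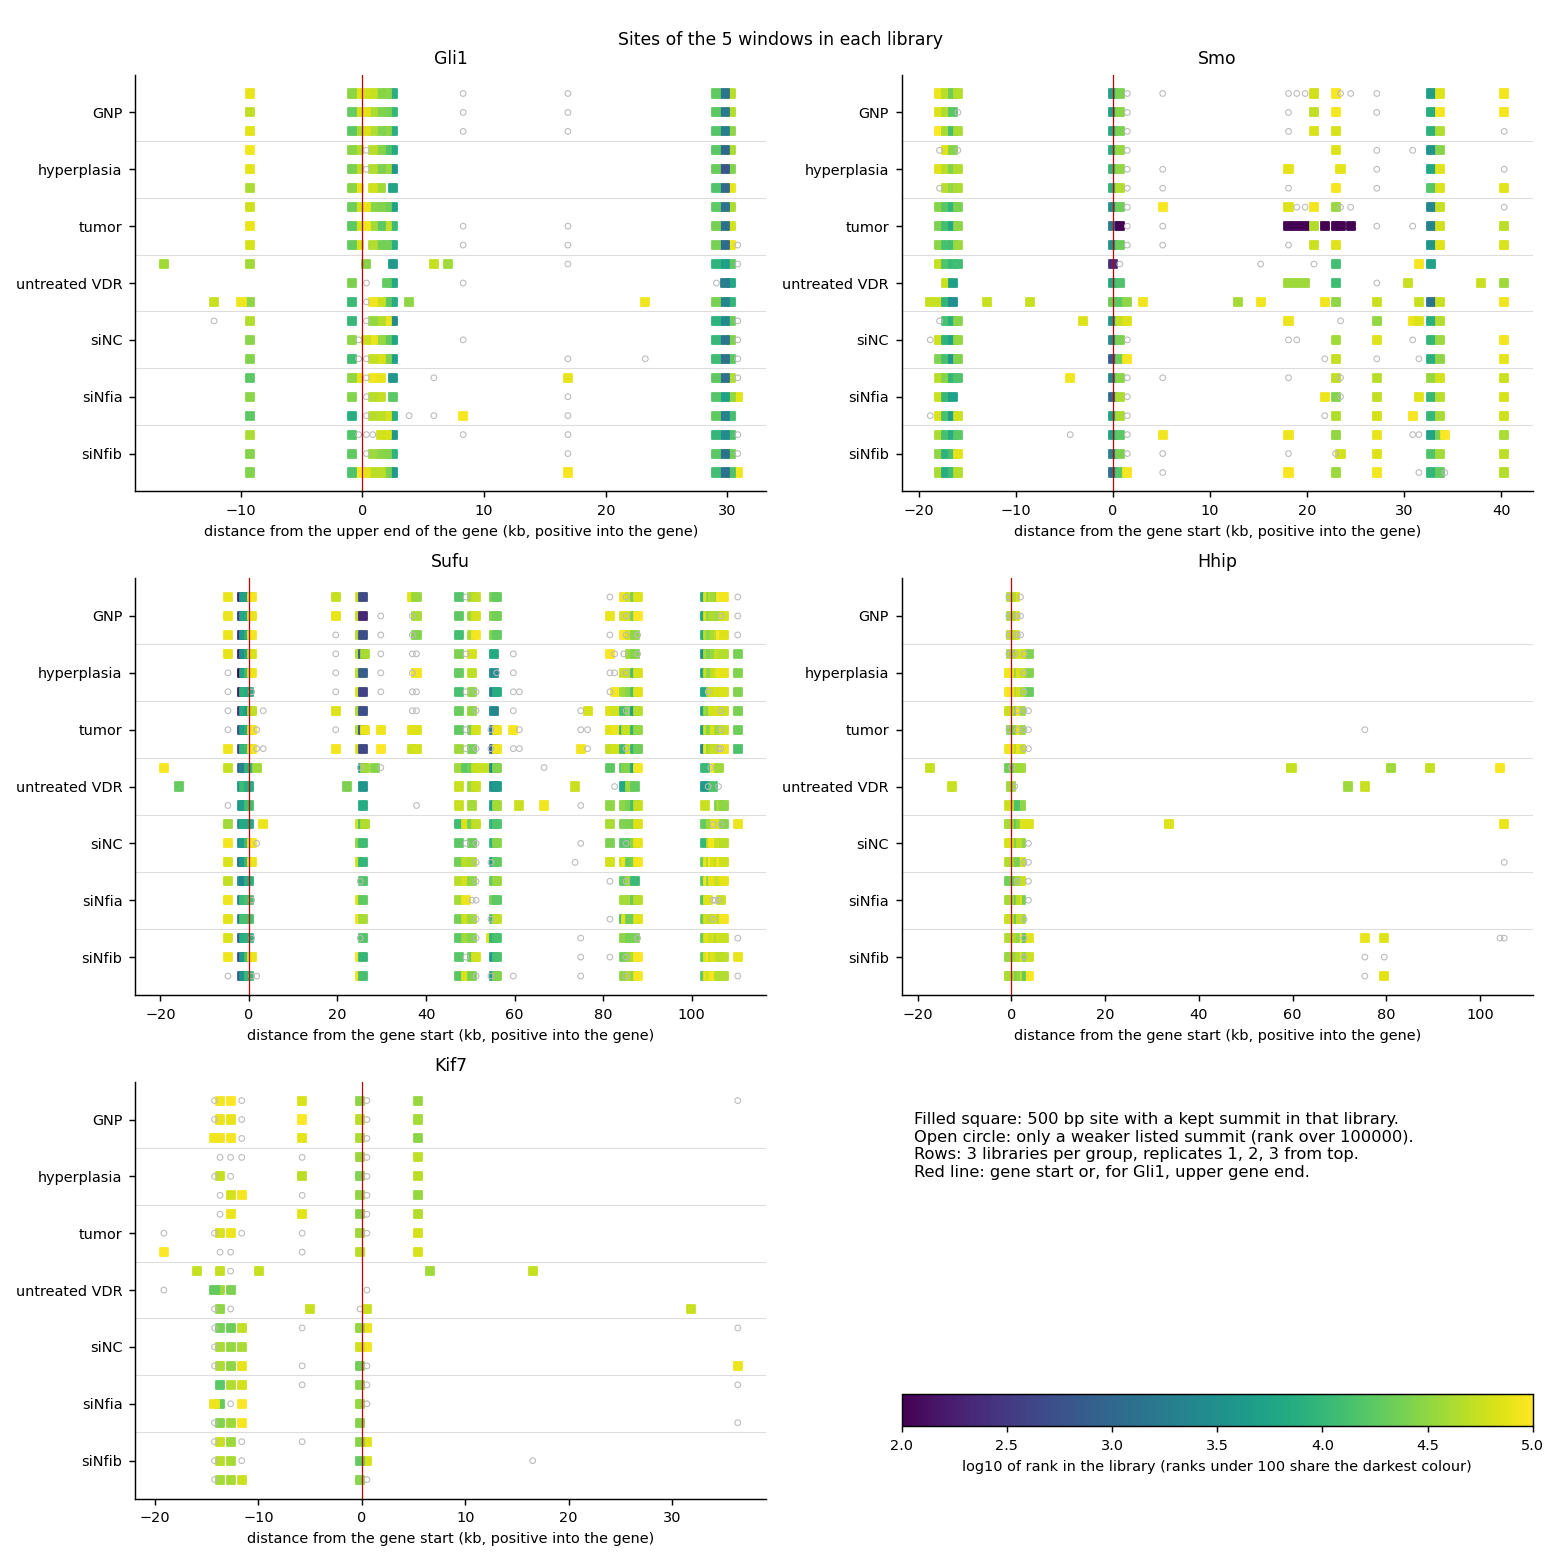
The 136 member sites by distance from the gene start in kb (horizontal; from the upper gene end for Gli1) and by library (rows, 3 per group). Filled squares are kept summits coloured by log10 rank, and open circles are weaker listed summits. Hhip sites kept in 3 or more libraries cluster at the start, whereas Sufu sites spread through the gene, and the dark run inside Smo is tumor library 2.

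Read together over the 7 comparisons, the window counts of the 5 members passed limma's test in 2 cases, both Hhip. In hyperplasia against GNP, 0 of 5 members were called beside 4.64% of 14116 windows, in tumor against hyperplasia 0 of 5 beside 0.312%, and in tumor against GNP 0 of 5 beside 6.7%. At an unadjusted p under 0.05, each of these 3 comparisons had 2 of 5 members, where 2966, 2404 and 3337 of all windows had such a p. Groups did not overlap for 1, 2 and 2 of 5 members, respectively. The share of all windows whose groups do not overlap was not computed for any of the 7 comparisons. These comparisons share libraries, so their values are not independent. In either direction, siNC against tumor called 34.7% and siNC against untreated VDR 32.3% of all windows.

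In the comparisons of siRNAs, no member moved past the test. For siNfia against siNC, 0 of 5 members and 0 of 13543 windows were called (0%), and 0 members had an unadjusted p under 0.05, as 1513 windows did. For siNfib against siNC, 0 of 5 members were called beside 1.02% of windows, and again 0 had an unadjusted p under 0.05, as 1952 of 13543 windows did. The intervals were widest for Kif7, at -0.67 to 0.26 on the log2 scale in both comparisons. They ran from -0.50 to 0.09 (siNfia) and -0.10 to 0.49 (siNfib) for Hhip, and from -0.33 to 0.09 and -0.19 to 0.23 for Sufu. Kept summits in siNfia and siNfib were 22, 25 and 19 and 23, 23 and 23 for Smo, against 20, 22 and 26 in siNC. For Sufu they were 32, 31 and 35 and 36, 37 and 35, against 34, 33 and 40. Both comparisons use the same siNC libraries. Sufu differed by 0.48 between siNC and untreated VDR (SE 0.18, limma adjusted p = 0.0615), with no overlap between the groups, at 31, 20 and 26 untreated. Gli1 (0.53, limma adjusted p = 0.220), Smo (0.23, 0.340) and Kif7 (0.30, 0.413) overlapped between those groups, Smo at 16, 19 and 23 untreated. The Gli1 difference was 0.12 without untreated VDR library 2, the one with 5 kept summits. Between siNC and tumor, Gli1 (-0.22, limma adjusted p = 0.257), Sufu (-0.16, 0.267), Smo (0.01, 0.979) and Kif7 (0.19, 0.449) overlapped as well.

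**Figure D5:**
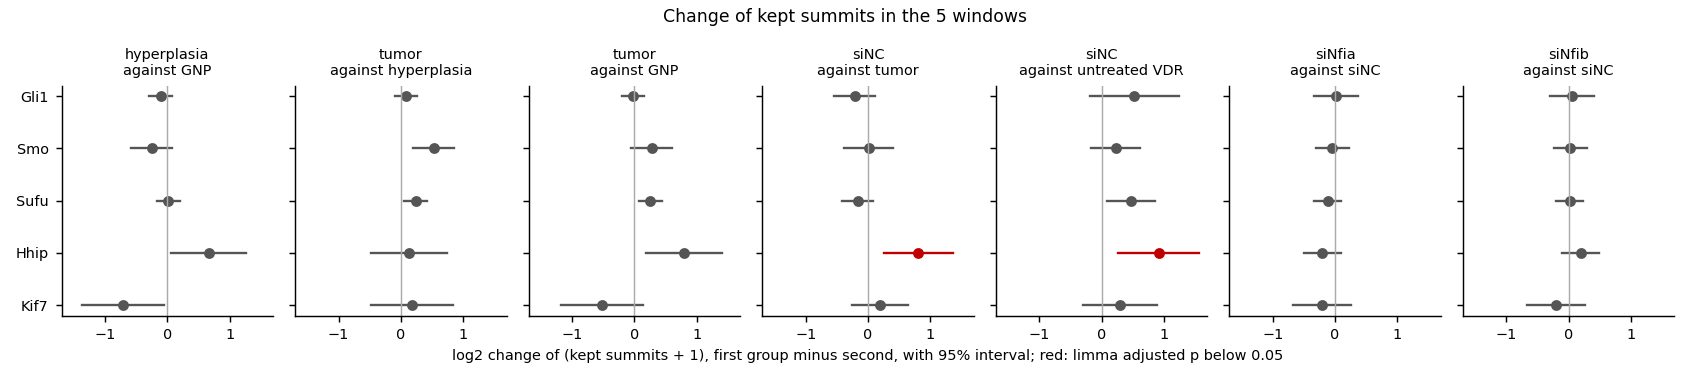
Change of kept summits in each window (horizontal, log2 of kept summits plus 1, first group minus second) in the 7 comparisons. Points are fitted differences, lines are 95% intervals and red marks a limma adjusted p below 0.05. Red points appear for Hhip in siNC against tumor (0.81) and in siNC against untreated VDR (0.92).

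Of the 75 member sites, 3 were gained and 3 lost in hyperplasia against GNP, or 4% each, beside 4.37% and 4.08% of all 113273 regions kept in 3 or more libraries. In tumor against GNP, 3 were gained (4%, beside 4.23%) and 0 lost (beside 3.9%). In tumor against hyperplasia, 1 was gained and 2 were lost, beside 1.68% and 1.86% of regions. In siNC against tumor, 2 were gained beside 4.82% and 4 lost beside 11.1%. In siNC against untreated VDR, 5 were gained beside 6.36% and 0 lost beside 1.05%. The Sufu site at 81543 bp was the only member site lost with siNfia (beside 0.855% of regions) and with siNfib (beside 2.06%), and 0 were gained (beside 0.973% and 3.15%). Of the 25 gains and losses, 9 had no summit of any rank in the lacking group, and in the others at least 1 library of that group listed a summit that was not kept.

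The rest of the pathway gives a frame for the 5 members. In a list of 48 other Hedgehog genes, 4 of the 44 tested were higher and 3 lower in hyperplasia than in GNP, beside 2.22% and 2.42% of all windows. The E3 ligase adaptors that mark Gli proteins for processing moved in opposite directions: Btrc was higher, with 19, 17 and 18 kept summits against 10, 9 and 8, and Fbxw11 lower, with 5, 4 and 5 against 9, 7 and 10. The others higher were Tulp3, Cdk6 and Foxf1. The list's median log2 difference was -0.09 beside -0.01 for all windows.

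Among these 48, Gli3, the Gli factor that acts mainly as a repressor, had 1 kept summit in each tumor library against 6, 6 and 7 in GNP and 10, 13 and 5 in hyperplasia. It was lower in tumor against GNP by a log2 difference of -1.87 (SE 0.26, limma adjusted p = 0.00727) and against hyperplasia by -2.28 (SE 0.26, limma adjusted p = 0.0190). The cell cycle gene Ccnd2 was higher in tumor in both, with 32, 27 and 27 kept summits against 20, 16 and 20 in GNP and 19, 16 and 15 in hyperplasia. Tulp3 and Foxm1 were also higher in tumor than in GNP, so that 3 of 44 were higher and 1 lower there, beside 3.22% and 3.49% of all windows. Against hyperplasia 1 of 44 was higher and 1 lower, beside 0.177% and 0.135%. The medians were 0.01 (all windows -0.05) and 0.07 (all windows -0.01). Whether the windows of Tulp3 and Foxm1 share summits was not checked, so they may not be separate changes. Ccnd2, Tulp3 and Foxm1 all lie on chromosome 6, as Smo does. That chromosome held 6114 to 7122 kept summits in tumor, 5086 to 5095 in GNP and 5142 to 5270 in hyperplasia. Its part in the counts of these genes was not tested.

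In siNC against tumor, 7 of 44 pathway genes were higher (Ift88, Dhh, Gli2, Prkaca, Disp1, Bcl2 and Igfbp6) and 10 lower, among them Sfrp1, Prkacb, Cdon, Ccnd2, Evc2, Spop, Ift172, Cdk6 and Csnk1a1. Of all windows 21.5% were higher and 13.2% lower, and the list's median was -0.08, beside 0.11 for all windows. In siNC against untreated VDR, 6 of 41 were higher (Ptch1, Gsk3b, Mycn, Cdk6, Gas1 and Zic1) and 4 lower (Gli2, Bcl2, Foxf1 and Hhat), beside 19.9% and 12.4% of all windows, with a median of 0.19 beside 0.23. Gli2, the main activator among Gli factors, held 327, 410 and 313 kept summits in untreated VDR, 81, 88 and 74 in siNC and 55, 41 and 45 in tumor. Gli2, Bcl2 and Hhat all lie on chromosome 1, and the part of that chromosome in their counts was not tested. Nor was the part of the chromosomes of the other called genes tested, in siNC against tumor or against untreated VDR. With siNfia and siNfib, 0 of 43 pathway genes passed limma's test in either direction, beside 0.384% of windows higher and 0.635% lower with siNfib.

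The genes on other chromosomes whose log2 counts were most like each member's over the 18 libraries other than untreated VDR were listed as a description. For Hhip these were Crb1, Myh11 and Cpsf1, with Pearson r of 0.96, 0.95 and 0.94. For Gli1 they were Ppfia3, Natd1 and Derl2 (0.83, 0.83 and 0.82), and for Smo they were Ptgs1, Ngly1 and Oxsm (0.83 each). For Kif7 they were Ptgfrn, Nae1 and Ltv1 (0.79, 0.76 and 0.75), and for Sufu they were Tm2d2, Adam9 and Izumo4 (0.81, 0.81 and 0.74). Tm2d2 and Adam9 both lie on chromosome 8 and had the same r, and Ngly1 and Oxsm both lie on chromosome 14. Whether the windows of such pairs share summits was not checked, so they may not be separate matches. Between 12890 and 13532 genes were searched for each member, and the points share group, list length and library.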

How the data were processed

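The deposited files were 1 summit list per library in mm10 coordinates. The submitters' processing notes name Bowtie2, Picard, MACS2 and mm10, with no versions or parameters, and read shifting and filtering are not given in the sources used here. In the deposited lists, column 5 was taken to be a MACS2 score, the -log10 of either the p or the q value. It depends on the depth of its library, which is unknown, so no counting interval was possible. It was used to rank summits within a list, except in the setting with scores of at least 10. That setting applied the same limit in all libraries, although their scores depend on depth.

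From each list on chromosomes 1 to 19, X and Y the 100000 highest scores were kept. Scores were heavily tied (99 to 809 distinct values among kept summits), so ties at the limit were kept in a seeded random order. A printed rank is 1 plus the number of higher scores, and a summit ranked under 100000 could therefore be left out. Windows were RefSeq gene bodies (GRCm38.p6) with 20 kb on each side. Counts were fitted as log2(count + 1) with limma 3.58.1 in R 4.3.3 (trended empirical Bayes), for windows with a mean of at least 3, with Benjamini-Hochberg adjustment over all windows and a threshold of 0.05. The 9 primary libraries, the 9 siRNA libraries, siNC with tumor, and siNC with untreated VDR were fitted separately. Only the fits of the 9 primary and of the 9 siRNA libraries were run on simulated data. Those of siNC with tumor and of siNC with untreated VDR, which gave the Hhip calls, were not. Sites were 500 bp regions merged by rank over all 21 libraries. Python 3.11.15 with pandas 2.3.3 did the rest. Coordinates are 1-based.

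Named genes were the members, the pathway genes called, and the 3 genes most correlated with each member. Some called pathway genes are counted but not reported by name here. Lists of granule neuron, astrocyte, oligodendrocyte and Purkinje markers were also summed, with 48 to 110, 36 to 59, 31 to 54 and 29 to 53 kept summits per library. Over 24 same-numbered pairs of libraries from different groups, correlations of deviations ran from -0.05 to 0.08. Pairs with different numbers ran from -0.11 to 0.12. Such small correlations over many windows cannot settle whether shared replicate numbers mark pairs. Alternatives covered the number kept, what was counted, the window, chromosome baseline, pseudocount, filter, fitted libraries, the replicate block and each library left out. The members and lists were chosen with earlier results of these data known.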

Additional observations from a re-analysis of the deposited data

How the results depend on the processing

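Neither Hhip call held under every setting. In siNC against tumor the number of members called fell from 1 to 0 with whole lists, scores of at least 10, 1 summit per peak, the same-chromosome baseline and no filter on the mean, and ranged from 0 to 1 over the libraries left out. Over occupied regions it stayed at 1, but Hhip was lost (0.57) and Kif7 passed in its place (0.37, limma adjusted p = 0.0483). In siNC against untreated VDR it was 0 with 50000 summits kept, 1 summit per peak, occupied regions, no filter or all tied summits kept, 2 in a wider fit with all VDR groups, 3 with whole lists and 4 with scores of at least 10, and ranged from 0 to 2 over the libraries left out, the 2 arising without untreated VDR library 1. In hyperplasia against GNP, 1 member was called in place of 0 with 1 summit per peak or occupied regions (Hhip) and in the gene body only (Gli1, -0.45). In tumor against GNP, 1 was called (Sufu) with 1 summit per peak or the same-chromosome baseline. In the other comparisons the count stayed at 0 in all settings run, and in hyperplasia against GNP, tumor against hyperplasia and tumor against GNP it stayed at 0 with each library left out. All windows called also varied with the setting. They ran from 1301 to 7429 in siNC against untreated VDR, 130 to 826 in hyperplasia against GNP and 66 to 987 in tumor against GNP. The share of windows is not given here for each setting, so these member counts cannot be read as particular to the members. The cause was not tested. With the replicate block, the counts were 0 in the 3 stage comparisons, 1 in siNC against tumor and in siNC against untreated VDR, and 0 with siNfia and siNfib, as without it; the labels do not say that replicate numbers mark pairs.

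Differences that did not pass the test, and the Hhip call in siNC against tumor with scores of at least 10, changed sign in several settings, all values being log2. With 50000 summits kept, they were Gli1 0.080 and Smo 0.057 in hyperplasia against GNP, Gli1 -0.17 in tumor against hyperplasia, Smo -0.22 in siNC against tumor, Gli1 -0.14 and Hhip 0.088 in siNfia against siNC, and Sufu -0.019 in siNfib against siNC. With all tied summits kept, they were Smo -0.058 and Kif7 -0.48 in siNC against untreated VDR, and Gli1 -0.061 in siNfib against siNC. In the gene body only, they were Sufu -0.11 in hyperplasia against GNP, Hhip -0.074 in tumor against hyperplasia, Smo -0.70 in siNC against tumor, Smo -0.12 in siNC against untreated VDR, Gli1 -0.21 in siNfia against siNC, and Smo -0.020 and Sufu -0.13 in siNfib against siNC. Over occupied regions, they were Sufu -0.17 in hyperplasia against GNP, Hhip -0.18 in tumor against hyperplasia, Smo -0.16 in siNC against tumor, Smo -0.033 in siNC against untreated VDR, Smo 0.041 in siNfia against siNC, and Sufu -0.098 in siNfib against siNC. With 1 summit per peak, they were Gli1 0.23 in hyperplasia against GNP, Gli1 -0.12 and Hhip -0.32 in tumor against hyperplasia, Gli1 0.11 and Kif7 0.0099 in tumor against GNP, Gli1 0.40 in siNC against tumor, Smo -0.26 in siNC against untreated VDR, Smo 0.054 and Sufu 0.13 in siNfia against siNC, and Gli1 -0.71, Smo -0.22 and Sufu -0.16 in siNfib against siNC. Against the rest of the chromosome, they were Smo -0.12 in tumor against GNP, Gli1 0.0060 and Smo -0.26 in siNC against tumor, Gli1 -0.015 in siNfia against siNC, and Gli1 -0.019 and Sufu -0.040 in siNfib against siNC. With scores of at least 10, they were Sufu -0.23 in hyperplasia against GNP, Smo -0.52, Hhip -0.40 and Kif7 -0.47 in siNC against tumor, Gli1 -0.30 and Hhip 0.22 in siNfia against siNC, and Kif7 0.25 in siNfib against siNC. With another order of ties, they were Smo -0.056 in siNC against tumor, and Smo 0.048 in siNfia against siNC. With whole lists, they were Gli1 0.091 in hyperplasia against GNP, and Gli1 -0.17 in tumor against hyperplasia. Over the libraries left out, these crossed 0: Sufu in hyperplasia against GNP (-0.035 to 0.050), Hhip in tumor against hyperplasia (-0.071 to 0.35), Kif7 in tumor against hyperplasia (-0.22 to 0.39), Gli1 in tumor against GNP (-0.081 to 0.012), Smo in siNC against tumor (-0.14 to 0.14), Gli1 in siNfia against siNC (-0.10 to 0.13), Smo in siNfia against siNC (-0.13 to 0.057), Gli1 in siNfib against siNC (-0.12 to 0.18), Smo in siNfib against siNC (-0.054 to 0.13), Sufu in siNfib against siNC (-0.034 to 0.10).

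All windows called numbered 655 in hyperplasia against GNP (130 to 826 and 149 to 377), 44 in tumor against hyperplasia (5 to 284 and 5 to 30), 946 in tumor against GNP (66 to 987 and 205 to 431), 4828 in siNC against tumor (2051 to 5407 and 3014 to 4112), 4271 in siNC against untreated VDR (1301 to 7429 and 1350 to 3950), 0 in siNfia against siNC (0 to 26 and 0 to 0), 138 in siNfib against siNC (0 to 160 and 2 to 48), where the first range is over other settings and the last over libraries left out. Counting member sites in at least 2 against at most 1 library raised the lost sites in hyperplasia against GNP from 3 to 12 and the gained sites in tumor against hyperplasia from 1 to 12. Read depth is unknown, and list scores were lowest in untreated VDR. Another order of ties and keeping all ties were chosen after seeing the data.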
